A study of Homo sapiens with 6 samples.

Results

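The expression of 10 genes that encode neutrophil chemokines, inflammatory cytokines and an inhibitor of the NF-kB pathway was examined in gastric cancer cells treated with an siRNA against C1GALT1. The genes are CXCL8, CXCL1, CXCL2, CXCL3, CCL20, IL6, IL1A, IL1B, TNF and NFKBIA. They were chosen by name, with earlier results of these data known. Their probes were found through the RefSeq accession printed for each probe of the array. This gave 13 probes among 58201 and 10 genes among 22439 that could be named.

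AGS cells, an established human gastric adenocarcinoma line, received si-Control, a nontargeting siRNA, or si-C1GALT1-3, an siRNA against C1GALT1, the galactosyltransferase that builds the core 1 structure of mucin-type O-glycans. RNA was collected 48 h later from 3 samples per group, and each sample was hybridized to a one-colour oligonucleotide array of its own. The comparison therefore rests on 1 cell line and 1 siRNA, and nothing in the labels says that the samples of a group were separate cultures, so the p-values measure only the spread between these samples, which may be technical. Arrays with the same replicate number shared a slide, with si-Control always in one column of the slide and si-C1GALT1-3 in the other, so slide position and treatment cannot be told apart.

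NF-kB transcription factors are held inactive in the cytoplasm by IkB proteins, until the IKK kinase complex marks the IkB proteins for degradation and the factors enter the nucleus. Among the genes they induce are the CXC chemokines that draw neutrophils through the receptor CXCR2, the cytokines TNF, IL-1 and IL-6, and NFKBIA itself, whose product IkB-alpha switches the factors off again. In the stomach, epithelial cells are a known source of these chemokines during infection with Helicobacter pylori.

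Between 66.2% and 72.7% of gene spots were well above background on each array, and none was saturated. On si-Control replicate 2, a block that held 15.9% of the gene spots was dim, with 36.5% of its spots well above background against 71.9% outside it, and the spots of that block were left out on that array. One probe each of CXCL1 and IL1A lay in the block and so had 2 control arrays in place of 3. The target of the siRNA, C1GALT1, had normalized log2 signals of 12.22, 13.03 and 12.62 in si-Control replicates 1, 2 and 3, and of 11.76, 11.98 and 11.13 after si-C1GALT1-3. Every knockdown array lay below every control array, and the difference was -1.0 on the log2 scale (SE 0.31, n = 3 and 3, limma adjusted p = 0.265). With an unadjusted limma p of 0.0193, C1GALT1 itself missed the threshold used below. All 5 epithelial markers (EPCAM, CDH1, KRT8, KRT18 and KRT19) exceeded background clearly on each of the 6 arrays. Of 6 leukocyte markers 4 did as well, with PTPRC at a mean of 13.97 and CSF3R at 15.76 in si-Control, while the myeloid marker ITGAM was so on 1 array. None of 5 fibroblast markers and 1 of 4 endothelial markers (CDH5) were well above background on all 6 arrays, but COL1A1, PDGFRB and VWF, whose probes lay in the dim block, were so on all the arrays with a value, and VWF differed by -1.03 (limma adjusted p = 0.257) and PDGFRB by -0.81 (limma adjusted p = 0.207), both with the groups apart. The summed linear signal of the leukocyte markers lay between 63609 and 84560 on the si-Control arrays and between 69703 and 80417 on the si-C1GALT1-3 arrays, and none of these marker genes passed the threshold for a change. Their part in the values of the 10 genes was not tested.

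CXCL2 and CXCL1 rose after si-C1GALT1-3, each by a little over 2-fold. They were the only 2 of the 10 genes, each taken by its probe with the highest mean signal, to pass the threshold of an unadjusted p under 0.01 and at least 2-fold in limma. With the slide as a block, CXCL2 alone passed this threshold. Of all 22437 named genes tested, 3.41% passed it in either direction and 2.08% passed it as higher in si-C1GALT1-3, and of all probes 2.64% passed it in either direction. CXCL3 was higher by less than 2-fold, and CXCL8, the best known member of the same chemokine family, was not higher on any of the 3 slides. Of the 10 genes 6 had a positive and 4 a negative difference, with a median of 0.29 on the log2 scale against 0.02 over all named genes tested. No probe of the 10 genes passed an adjusted p under 0.05, the lowest being 0.0979. This value is adjusted after Benjamini and Hochberg over the 58195 probes that limma tested, of which 49 passed.

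**Figure D1:**
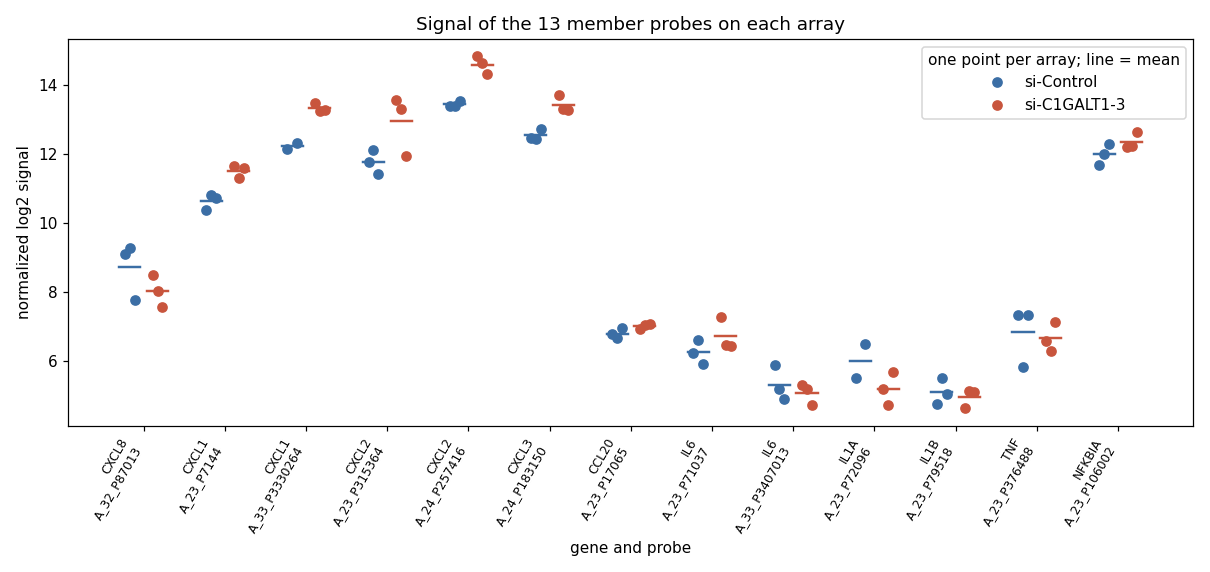
Normalized log2 signal (vertical axis) of the 13 probes (horizontal axis) on each array, with 1 point per array and a line at the group mean, si-Control in blue and si-C1GALT1-3 in red. The red points lie above all blue points for both CXCL1 probes, the brighter CXCL2 probe and CXCL3; levels of different probes are not comparable.

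CXCL2 encodes a CXCR2 ligand that attracts neutrophils. Its brighter probe, A_24_P257416, gave normalized log2 signals of 13.40, 13.39 and 13.54 in si-Control replicates 1, 2 and 3, and of 14.83, 14.63 and 14.32 in si-C1GALT1-3 replicates 1, 2 and 3. The 2 groups did not overlap, and the 3 control arrays lay close together. The means were 13.44 ± 0.08 (SD, n = 3) and 14.60 ± 0.25 (SD, n = 3), a 2.22-fold rise (log2 difference 1.15, SE 0.17, limma adjusted p = 0.0979). The probe passed the threshold in 16 of 17 alternative settings, and without normalization between arrays it was higher by 1.18 and missed it on p.

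The second CXCL2 probe, A_23_P315364, gave 11.76, 12.13 and 11.42 in si-Control and 13.58, 13.32 and 11.94 in si-C1GALT1-3. Its knockdown replicate 3 lay below control replicate 2, so the groups overlapped. The log2 difference was as large as for the brighter probe, 1.17, but its SE was 0.47 (limma adjusted p = 0.360), and leaving out si-C1GALT1-3 replicate 3 raised it to 1.68 and past the threshold. On every slide, both CXCL2 probes were higher in the si-C1GALT1-3 array.

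CXCL1 encodes a closely related CXCR2 ligand. Its brighter probe, A_33_P3330264, gave 12.15 and 12.33 in si-Control replicates 1 and 3, with no value in replicate 2, and 13.48, 13.26 and 13.27 in si-C1GALT1-3. All 3 knockdown arrays lay above both control arrays. The rise was 2.14-fold (log2 difference 1.1, SE 0.17, n = 2 and 3, limma adjusted p = 0.125). The call was lost without si-Control replicate 1, with a log2 difference of 0.99, where 1 control array was left and was assumed to vary like the other group, and with the slide as a block, with 1.14 and p above 0.01. Keeping the dim block of si-Control replicate 2 moved the difference to 2.97, again with p above 0.01. Without normalization between arrays the difference was 1.14 and the call was lost as well.

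The other CXCL1 probe, A_23_P7144, lay outside the dim block and had values on all 6 arrays. It gave 10.38, 10.82 and 10.72 in si-Control and 11.64, 11.31 and 11.61 in si-C1GALT1-3, again without overlap. The difference was 1.84-fold, below the 2-fold threshold (log2 difference 0.88, SE 0.18, limma adjusted p = 0.151).

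CXCL3, the third of these CXCR2 ligands, was measured by 1 probe. It gave 12.47, 12.44 and 12.72 in si-Control and 13.70, 13.30 and 13.29 in si-C1GALT1-3. The groups did not overlap, and the difference was 1.85-fold, also below the threshold (log2 difference 0.89, SE 0.18, limma adjusted p = 0.144). With the slide as a block, the unadjusted limma p of CXCL3 was 0.0108. CXCL1, CXCL2 and CXCL3 were the 3 genes of the 10 with p under 0.01 and a positive difference at any fold, where 3.78% of all named genes had both. They were also the 3 genes whose knockdown arrays all lay above the control arrays, as did 14.0% of all named genes, and none of the 10 had its knockdown arrays all below, as 11.2% did. Without normalization between arrays IL1A had, with 2 control arrays, and NFKBIA then lay apart as higher. The share of all named genes that lay apart in that setting was not counted, so these 2 changes have no background beside them. The 3 genes are near-identical paralogs, and whether a probe of one also bound transcripts of another was not tested.

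CXCL8 encodes interleukin-8, which binds CXCR1 as well as CXCR2. It gave 9.10, 9.26 and 7.77 in si-Control and 8.50, 8.01 and 7.55 in si-C1GALT1-3. Control replicate 3 lay far below the other two and among the knockdown arrays, so the groups overlapped. The log2 difference was -0.69 (SE 0.47, 95% confidence interval -1.86 to 0.48, limma adjusted p = 0.583). By slide the difference was -0.61, -1.24 and -0.22, and it stayed negative in all 17 alternative settings, between -1.15 and -0.42.

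**Figure D2:**
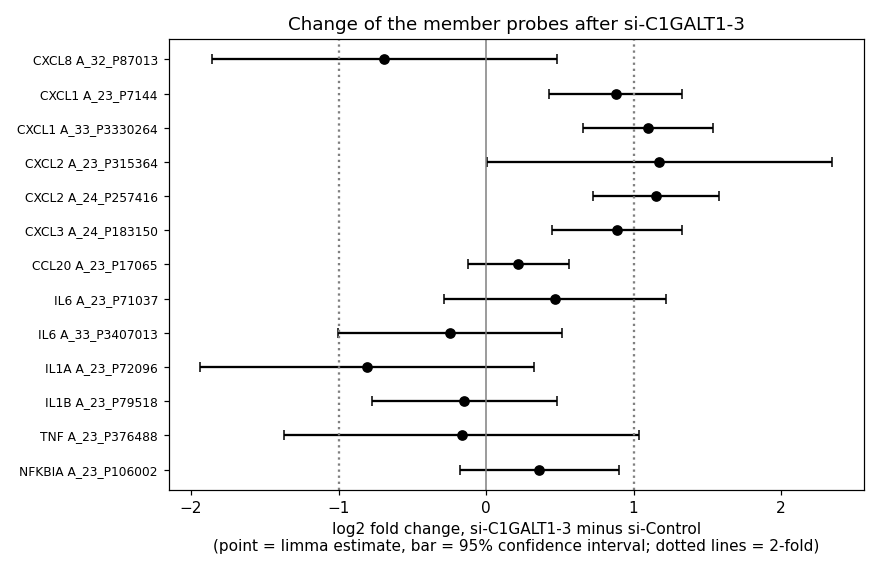
Log2 fold change of each probe, si-C1GALT1-3 minus si-Control (horizontal axis), with the limma estimate as a point and its 95% confidence interval as a bar; dotted lines mark 2-fold. The intervals of both CXCL1 probes, both CXCL2 probes and CXCL3 lie above 0, and those of the other 8 probes include 0.

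Because all of these probes were read on the same arrays, the log2 signal of each was also set against that of CXCL8 on the same array. The size of such a gap depends on the probes and is not a comparison of levels, so only its change between arrays was read. For the brighter CXCL2 probe the gap was 4.29, 4.14 and 5.77 on the si-Control arrays and 6.33, 6.62 and 6.78 on the si-C1GALT1-3 arrays. It was wider in the knockdown array on each slide for this probe, for the other CXCL2 probe, for CXCL3, for the CXCL1 probe with 6 values and for NFKBIA. The mean change was 1.84, 1.86, 1.58, 1.57 and 1.05, in that order. For NFKBIA the groups overlapped, with gaps of 2.59, 2.74 and 4.51 on the si-Control arrays and 3.70, 4.21 and 5.09 on the si-C1GALT1-3 arrays. For the other probes they did not overlap. All 5 gaps share the CXCL8 probe, they were chosen with the values known, and no test is given for them.

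**Figure D3:**
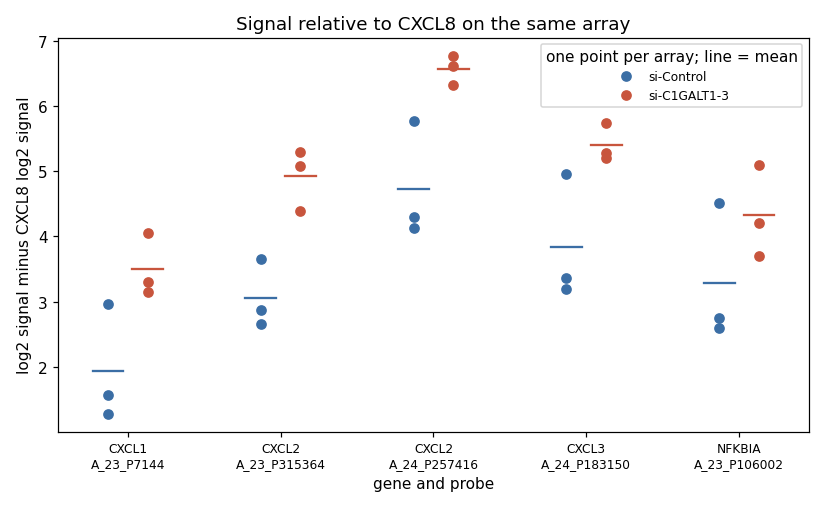
Log2 signal minus the CXCL8 log2 signal of the same array (vertical axis) for 5 probes (horizontal axis), with 1 point per array and a line at the group mean. The mean of the si-C1GALT1-3 points lies above that of the si-Control points for each probe, by 1.05 for NFKBIA and by 1.57 to 1.86 for the others; only changes of a gap are comparable between probes.

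The differences within slides fell at each step from slide 1 to slide 2 to slide 3 for both CXCL2 probes and CXCL3. For the CXCL1 probe with 6 values they did not fall at each step. The brighter CXCL2 probe was higher in the knockdown array by 1.43, 1.24 and 0.79 log2 units on slides 1, 2 and 3. The second CXCL2 probe was higher by 1.82, 1.19 and 0.52, and CXCL3 by 1.24, 0.85 and 0.57. The CXCL1 probe with 6 values was higher by 1.26, 0.49 and 0.88, so its smallest difference was on slide 2. The brighter CXCL1 probe, with no control value on slide 2, was higher by 1.33 on slide 1 and 0.94 on slide 3. C1GALT1 differed by -0.47, -1.05 and -1.49 on slides 1, 2 and 3, so its fall was smallest on slide 1, where CXCL1, CXCL2 and CXCL3 rose most. With 3 slides these values are a description only.

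The promoters of the 3 chemokines that were higher together, and those of CXCL8 and NFKBIA, are shown because they hold GGAATTTCC, a form of the core of the NF-kB site, which few promoters do. Each run is the 150 bases before the start of the transcript in RefSeq's GRCh38.p14, 5′ to 3′ on the strand of the gene, and capitals mark matches on either strand to GGAATTTCC and to TGANTCA, a form of the AP-1 site, which do not overlap. CXCL1 lies on the plus strand (chr4:73869243-73869392), CXCL2 on the minus strand (chr4:74099196-74099345), CXCL3 on the minus strand (chr4:74038690-74038839), CXCL8 on the plus strand (chr4:73740419-73740568) and NFKBIA on the minus strand (chr14:35404750-35404899).
CXCL1: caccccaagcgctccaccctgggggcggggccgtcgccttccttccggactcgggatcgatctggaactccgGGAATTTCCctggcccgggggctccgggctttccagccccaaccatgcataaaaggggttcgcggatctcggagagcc
CXCL2: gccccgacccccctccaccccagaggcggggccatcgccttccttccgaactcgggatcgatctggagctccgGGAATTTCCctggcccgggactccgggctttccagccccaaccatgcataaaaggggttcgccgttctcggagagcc
CXCL3: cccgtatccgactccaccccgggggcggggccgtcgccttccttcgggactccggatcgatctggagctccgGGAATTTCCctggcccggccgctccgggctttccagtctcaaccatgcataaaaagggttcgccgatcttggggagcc
CXCL8: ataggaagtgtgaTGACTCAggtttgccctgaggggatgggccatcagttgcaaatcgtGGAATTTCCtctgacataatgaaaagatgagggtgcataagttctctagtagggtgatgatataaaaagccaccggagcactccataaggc
NFKBIA: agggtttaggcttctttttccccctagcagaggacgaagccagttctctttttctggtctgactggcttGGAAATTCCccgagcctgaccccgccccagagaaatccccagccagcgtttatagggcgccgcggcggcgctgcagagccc

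The first 3 of these windows were alike, with 88.7% identical positions between CXCL1 and CXCL2, 88.1% between CXCL1 and CXCL3 and 86.1% between CXCL2 and CXCL3 in pairwise alignments. CXCL8 shared 43.6% to 45.1% with them, and NFKBIA, a gene on another chromosome, shared 49.0% to 50.3% with them. No unrelated promoters were aligned, so these lower shares have no baseline and show no likeness between NFKBIA and the 3 chemokines. The match to GGAATTTCC began 78 bases before the start in CXCL1 and CXCL3, 77 in CXCL2 and 91 in CXCL8, and on the opposite strand 81 bases before it in NFKBIA. In windows from 250 bases before to 50 after the start, GGAATTTCC was found on either strand in 0.461% of 35116 promoters and in these 5 of the 10 genes. The looser GGNNTTTCC, of which GGAATTTCC is one form, was found in 6.26% of promoters and in 7 of the genes, with CCL20 and IL6 added. CXCL1, CXCL2 and CXCL3 each held a second match to it, 53 bases before the start. NFKBIA also held a second match, 242 bases before the start, and CXCL8 did not. TGANTCA was found in 7.71% of promoters and in 2 of the genes, CXCL8, 137 bases before the start, and IL1A. These matches describe the letters of the windows and not binding. Known NF-kB targets are among the 10 genes, which have 11 promoters here, so the contrast with all promoters is not an independent result.

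All 4 chemokines lie in a cluster on chromosome 4, in the order CXCL8, CXCL6, PF4V1, CXCL1, PF4, PPBP, CXCL5, CXCL3, PPBPP2, CXCL2 for the genes with a probe. CXCL5, which encodes another CXCR2 ligand and lies between CXCL1 and CXCL3, differed by 0.25 on the log2 scale (SE 0.21, limma adjusted p = 0.664) and was well above background on both control arrays with a value and on all 3 knockdown arrays. PF4 differed by 0.13, also below the threshold. PPBP was well above background on the 3 knockdown arrays and on neither control array with a value. Its groups overlapped, and the log2 difference was 0.30 (SE 0.23, 95% confidence interval -0.30 to 0.91, limma adjusted p = 0.633). CXCL6 was well above background on 1 knockdown array and on neither control array with a value, and PF4V1 on no array, so no fold is given for them.

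**Figure D4:**
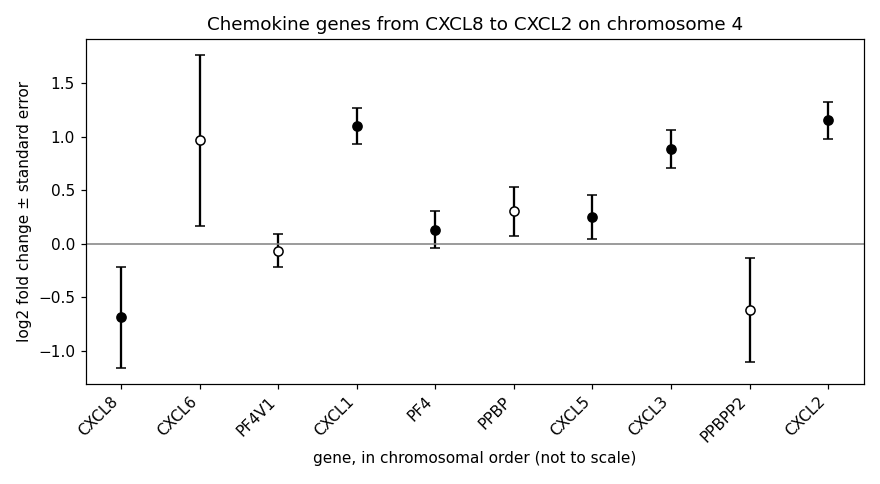
Log2 fold change, si-C1GALT1-3 minus si-Control, with its standard error (vertical axis) for the genes with a probe from CXCL8 to CXCL2 on chromosome 4, in their order and not to scale (horizontal axis). Filled points were well above background on at least 2 control arrays and all 3 knockdown arrays. CXCL1, CXCL3 and CXCL2 stand near 1, with PF4, PPBP and CXCL5 between them nearer 0; the open points of CXCL6, PF4V1, PPBP and PPBPP2 have at least 1 group that was mostly not above background.

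Over the 6 arrays, the probes of named genes whose signal followed the brighter CXCL2 probe most closely were those of TNS2 (Pearson's r = 0.998), LGALS9C, CAPRIN1, ATP6V1G3 and INTS6L (0.997 to 0.996), among 18647 ranked. CXCL3 came 62nd with r = 0.979 and the CXCL1 probe with 6 values 662nd with 0.907. The other CXCL2 probe had 0.839, CCL20 0.715, NFKBIA 0.536, TNF -0.183 and CXCL8 -0.470. These values over 6 arrays in 2 groups describe a shared pattern and carry no test.

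CCL20, the ligand of CCR6 that draws dendritic cells and lymphocytes, was low, at 6.78, 6.65 and 6.94 in si-Control and 6.92, 7.05 and 7.05 in si-C1GALT1-3. Knockdown replicate 1 lay below control replicate 3. The log2 difference was 0.22 (SE 0.14, 95% confidence interval -0.12 to 0.56, limma adjusted p = 0.551), an interval that does not reach 2-fold.

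The 4 cytokines gave dim signals, and none passed the threshold. IL6, which signals through gp130, had 2 probes that differed in sign. A_23_P71037 gave 6.22, 6.59 and 5.92 in si-Control and 7.26, 6.44 and 6.43 in si-C1GALT1-3, with a log2 difference of 0.47 (SE 0.30, limma adjusted p = 0.561). It was higher in the knockdown array on slides 1 and 3 and lower on slide 2. A_33_P3407013, designed on a predicted transcript, was well above background on 1 array of each group and differed by -0.24 (SE 0.31, limma adjusted p = 0.788).

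IL1A encodes interleukin-1 alpha, a cytokine that cells release on damage. It gave 5.50 and 6.48 in si-Control replicates 1 and 3, and 5.17, 4.71 and 5.67 in si-C1GALT1-3. It was well above background on both control arrays with a value and on no knockdown array. The measured difference was -0.81 (SE 0.43, 95% confidence interval -1.94 to 0.33, limma adjusted p = 0.494), an interval that includes 0. Since the knockdown level is only bounded, the means of 2 and 3 arrays give a bound of 1.57-fold lower. This bound allows for background but not for the spread between arrays, and si-Control replicate 1 lay below knockdown replicate 3. That bound sets the control mean against the lowest signal that was well above background on each knockdown array, or the signal of the probe where that was higher. The bound was 1.11-fold with si-Control replicate 1 alone and 2.20-fold with si-Control replicate 3 alone, and leaving out each array moved the difference between -1.31 and -0.31. With the dim block of si-Control replicate 2 kept, the difference turned to 0.06.

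IL1B, which encodes the secreted interleukin-1 beta, was well above background on 1 control array and no knockdown array, so no fold is given. Its signals lay between 4.75 and 5.50 in si-Control and between 4.63 and 5.12 in si-C1GALT1-3. TNF, which encodes the cytokine TNF-alpha, was well above background on all 6 arrays. It gave 7.33, 5.81 and 7.32 in si-Control and 6.57, 6.27 and 7.13 in si-C1GALT1-3. Control replicate 2 was the lowest and the other 2 controls the highest, and the log2 difference was -0.16 (SE 0.49, 95% confidence interval -1.37 to 1.04, limma adjusted p = 0.938), which does not leave out a 2-fold change in either direction.

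NFKBIA encodes IkB-alpha and is itself induced by NF-kB. Its probe had 10 spots on the array, 1 of them in the dim block, and the mean of its spots was 11.69, 12.00 and 12.28 in si-Control and 12.20, 12.22 and 12.64 in si-C1GALT1-3. Control replicate 3 lay above knockdown replicates 1 and 2, so the groups overlapped. The log2 difference was 0.36, or 1.28-fold (SE 0.22, 95% confidence interval -0.18 to 0.90, limma adjusted p = 0.529). It was positive on every slide, at 0.51, 0.22 and 0.36. Before normalization between arrays, the medians of the linear intensity over its spots were 4069, 3793 and 3966 in si-Control. In si-C1GALT1-3 they were 5410, 5438 and 5462, which did not overlap with the controls. The means of its log2 spot signals did not overlap before normalization either. The overlap between the groups thus depended on the normalization, while the threshold was missed with and without it.

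**Figure D5:**
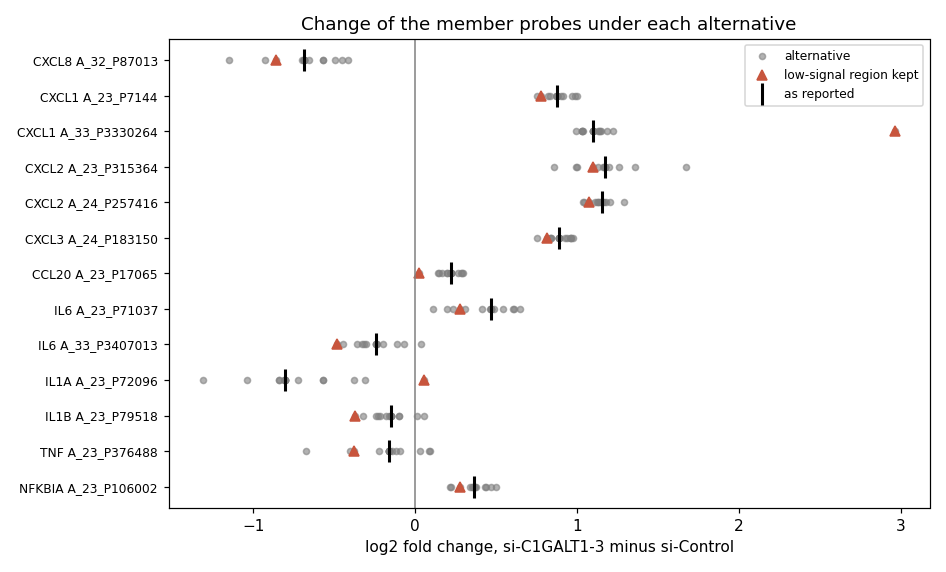
Log2 fold change of each probe, si-C1GALT1-3 minus si-Control (horizontal axis), as reported (black bar), under each alternative (grey points) and with the dim block of si-Control replicate 2 kept (red triangle). The CXCL2, CXCL3 and NFKBIA values stay above 0 and the CXCL8 values below 0, while IL1A, IL1B, TNF and the second IL6 probe cross 0.

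The rest of the pathway was examined through 10 lists of 110 genes, of which 107 had a named probe that was tested and 89 were well above background in at least 1 group, on each array with a value. Past the threshold were 1 gene that was lower and 1 that was higher, against 1.33% lower and 2.08% higher among all named genes. The lower one was CD83, an NF-kB target that marks mature dendritic cells. It gave 6.46, 7.31 and 7.55 in si-Control and 5.27, 5.43 and 6.02 in si-C1GALT1-3, without overlap (log2 difference -1.53, SE 0.35, limma adjusted p = 0.177). The call was kept in 11 of 17 alternative settings. It was lost after normexp, where the difference was -0.82, by the methods' t-test, and without si-Control replicate 2 or 3 or si-C1GALT1-3 replicate 1 or 2, where the difference was -1.44, -1.30, -1.38 and -1.46. The higher one was the probe of CYLD, a deubiquitinase that restrains the pathway (limma adjusted p = 0.140). None of the 6 arrays had it well above background, so no fold is given.

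None of the 5 NF-kB subunits passed the threshold. RELA differed by 0.04, RELB by -0.11, REL by 0.35, NFKB1 by 0.17 and NFKB2 by -0.31 on the log2 scale. Among the 3 genes of the IKK complex, the kinase IKBKB differed most, by 0.72 (SE 0.16, limma adjusted p = 0.172), or 1.65-fold, without overlap between the groups, and IKBKG least, by 0.24. Among 7 inhibitors and atypical IkB proteins, those well above background ranged from -0.31 for BCL3 to 0.94 for TNIP1, which binds the ubiquitin-editing protein TNFAIP3. The TNIP1 value (SE 0.58, limma adjusted p = 0.540) rested on si-Control replicate 2, which at 11.01 lay below every other array, and was 0.27 without it.

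No receptor of the 10 genes' products passed the threshold. Of 10 such genes 8 were well above background, from -0.96 for TNFRSF1A, the main TNF receptor (SE 0.23, limma adjusted p = 0.188), to 0.56 for IL6ST, which encodes gp130 (SE 0.15, limma adjusted p = 0.213). For both, the groups did not overlap. TNFRSF1A lay close to 2-fold and passed the threshold in 5 of 17 alternative settings, among them without si-Control replicate 3, at -1.07, and without si-C1GALT1-3 replicate 3, at -1.15. CXCR2 itself differed by -0.15. Among 12 adaptors and kinases, BIRC3, a ubiquitin ligase and NF-kB target, was the lowest at -0.79 (SE 0.13, limma adjusted p = 0.110), or 1.73-fold lower, and the adaptor TRADD the highest at 0.61 (SE 0.14, limma adjusted p = 0.165).

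In the remaining lists, no gene besides CD83 passed the threshold. Among the 18 NF-kB target genes of a separate list, which holds CD83, the highest that was well above background was TNFAIP2 at 0.56. Of the IL1 family and its processing, the alarmin IL33 differed by -1.41 (SE 0.49, n = 2 and 3, limma adjusted p = 0.327). IL33 passed the threshold in 2 of 17 alternative settings, among them with the slide as a block, at -1.78. With the dim block kept it differed by -0.87 and missed it. The inflammasome sensor NLRP3 differed by 1.25 (SE 0.53, limma adjusted p = 0.383). The AP-1 and C/EBP factors ranged from -0.30 for FOSL1 to 1.02 for FOS. FOS had an SE of 0.87 and overlapping groups. Regulators of AU-rich transcripts ranged from -0.33 for ZFP36L1 to 1.20 for ZFP36L2 (SE 0.53, limma adjusted p = 0.397). ZFP36L2 passed the threshold in 1 of 17 alternative settings, without si-Control replicate 3, at 1.74. Of the other chemokine ligands 29 were tested, of which 21 were well above background, from -0.78 for CCL13 (SE 0.33, limma adjusted p = 0.376) to 1.05 for CCL5 (SE 0.52, limma adjusted p = 0.461).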

How the data were processed

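RNA of transfected AGS cells, taken at 48 h, was hybridized to 3 si-Control and 3 si-C1GALT1-3 arrays. The authors deposited the scanner output of Agilent Feature Extraction 10.5.1.1, in which each spot has a fluorescence intensity, corrected for background and not normalized between arrays, and a series table of the background-subtracted intensity. Quantile normalization and limma, which the study's methods name, are later steps.

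Control spots, outlier spots (100 to 424 per array) and the dim block of si-Control replicate 2 were set aside. The processed intensity was log2-transformed and quantile normalized, spots of a probe were averaged, and groups were compared with limma version 3.58.1 in R version 4.3.3 over all probes, two-sided. Threshold: p under 0.01 and 2-fold, as in the study's volcano plot, with Benjamini-Hochberg values over all probes. Counts of genes take each gene by its brightest probe on average. The procedure was tested on simulated data. The number of arrays limits the precision.

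Probes were named by RefSeq accession (31104 of 58201). Named beside the 10 genes are C1GALT1, called genes and the largest rise and fall of each list, and the 5 probes most like CXCL2. BIRC3, IKBKB, TRADD, TNFRSF1A and IL6ST fall under that rule, and the remaining subunits, CXCR2, the neighbours on chromosome 4 and markers were added for context. The genes and lists were chosen with earlier results of these data known. CCL4, CCL27, CX3CL1 and LYZ had no named probe. Replicates of the same number share a slide per the file headers, and their deviations from the group means correlated at 0.198, 0.215 and 0.329 (48794 probes), so they were taken as pairs for the slide block. The main comparison did not use these pairs. The alternatives were other normalizations, normexp on the median spot signal with an offset of 50, the series table floored at 10, dim probes or outliers handled otherwise, the block, a trend and robust prior, the methods' t-test, the median over probes, and leaving out each array. The bases printed are those of RefSeq's promoter table, and 11 of its promoters matched the 10 genes. Probe and protein sequences were not used here.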

Additional observations from a re-analysis of the deposited data

How the results depend on the processing

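The number of the 10 genes past the threshold was 2 as reported, 0 without normalization between arrays, 1 with the dim block kept, 1 with the slide as a block, and between 1 and 2 when each array was left out, with 1 only without si-Control replicate 1. Under the replicate block the gene that was lost was CXCL1, and the block changed no other call among the 13 probes and added IL33 among the listed genes. The CXCL2, CXCL1, CXCL3, CCL20, NFKBIA, CXCL8 and first IL6 probes kept their direction under every alternative run.

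Directions that turned belonged to probes that missed the threshold. IL1A moved to 0.056 with the dim block kept. Leaving out each array gave a range of -0.67 to 0.091 for TNF, -0.45 to 0.036 for the second IL6 probe and -0.32 to 0.055 for IL1B, and -1.31 to -0.31 for IL1A, which kept its direction there. The causes were not tested.

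The further lists had 2 genes past the threshold as reported, 4 with the dim block kept, 1 with dim probes left out (CYLD was not tested there), 1 by the methods' t-test and between 1 and 4 when each array was left out, with 4 without si-Control replicate 3 and 1 without replicate 1 of either group or knockdown replicate 2. The genes gained in one or more alternatives were TNFRSF1A, IL33, CASP1, CXCL9, IL11 and ZFP36L2. CD83 was lost in 6 of 17 alternatives and CYLD in 2 of 16. Over all probes 1538 passed as reported, 915 after normexp, 896 by the methods' t-test, of which 2 passed an adjusted p under 0.05, and between 1126 and 1781 when each array was left out. The share of calls that were higher was 62.5% as reported, 72.6% without normalization, 54.1% with the 75th percentile, where the median difference of all probes was -0.11, and 40.2% with the dim block kept. The 49 probes past an adjusted p under 0.05 became 0 with the slide as a block, outlier spots or the dim block kept, a trend and robust prior, no normalization, or any array left out, 429 after normexp and 544 with dim probes left out, and 8027 had an unadjusted p under 0.05. Taking the median of a gene's probes gives no count over all probes.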
